A study of Mus musculus with 12 samples.

Results

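The genes described here are Atp5g1, Atp5g2 and Atp5g3, the 3 nuclear genes for subunit c of mitochondrial ATP synthase. They were chosen by symbol and are 3 of the 52459 genes in the count table. Subunit c is the small, very hydrophobic protein that forms the rotating ring of the ATP synthase in the inner mitochondrial membrane. Protons that cross the membrane turn this ring, and the turning drives ATP synthesis in the F1 head. The genes encode precursors with different targeting sequences, which are removed on import to leave the same mature protein. Subunit c is also the main protein stored in lysosomes in several forms of neuronal ceroid lipofuscinosis, among them the late-infantile form caused by loss of the lysosomal protease tripeptidyl peptidase I, the product of Tpp1.

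RNA-seq was carried out on the brains of 4-month-old male mice of a line with a targeted disruption of Tpp1. Homozygous mutants (Tpp1-/-, T) were compared with wild-type siblings (N) in the cerebellum (Cb) and in the forebrain/midbrain (F/M), with 3 libraries in each of the 4 groups F/M-N, F/M-T, Cb-N and Cb-T. The mutation is present in every cell from conception, and both areas were taken whole, so the RNA came from all their cell types. By the methods of the study, RNA of both areas came from 3 mice of each genotype, so the Cb and F/M libraries of a genotype share animals, but the labels do not name the animal of each library. The p-values measure the spread between these libraries.

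The 12 libraries held 21428379 to 24458189 counted reads, so that 3 reads, taken as the limit of detection, corresponded to 0.123 to 0.140 counts per 1000000 reads (CPM). Levels below are CPM after TMM scaling (trimmed mean of M-values), given as mean ± SD over 3 libraries and scaled over all 12 libraries together. Fold changes between T and N come from fits scaled on the 6 libraries of an area alone, so they can differ a little from the ratio of the printed levels. Tpp1 itself lay between 87.8 and 94.4 CPM in F/M-N and between 21.8 and 23.9 in F/M-T. It lay between 112 and 114 CPM in Cb-N and between 28 and 31.1 in Cb-T, so each library matched its label. The summed level of 8 forebrain markers was 600 to 621 CPM in F/M-N against 12 to 13 in Cb-N, and that of 6 granule cell markers was 206 to 220 CPM in F/M-N against 5418 to 5578 in Cb-N, as the labelled areas would have it. The areas differed between genotypes in more than Tpp1. The summed level of 16 Hox genes, which mark hindbrain and spinal cord, reached 0.371 to 0.596 CPM in Cb-N, where 8 of them were at 0, against 14.3 to 14.9 CPM in Cb-T. The 8 forebrain markers summed to 32.7 to 35.4 CPM in Cb-T, above Cb-N, with 3 of them higher, 1 lower and 2 not called among the 6 that could be tested (29.8% of all genes were called higher and 27.9% lower in Cb at an adjusted p below 0.1). They summed to 546 to 555 CPM in F/M-T, below F/M-N, with 1 higher, 5 lower and 2 not called (12.8% and 14.4% of all genes in F/M). The summed level of 6 olfactory bulb markers was 40.5 to 42.0 CPM in F/M-N and 14.9 to 16.4 in F/M-T. All 6 were lower in F/M-T, against the same 14.4% of all genes. This sum was not specific to the bulb, since wild-type cerebellum had more of it, 55.1 to 57.9 CPM, mostly Eomes (mean 53.2 CPM). Mutant cerebellum had 15.4 to 17.3 CPM. Of the 3 bulb markers tested in Cb, 1 was higher, 1 lower and 1 not called, beside 29.8% and 27.9% of all genes. The part of these differences in the results for subunit c was not tested.

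The proteins end in the same 78 residues in all 3 genes, out of precursors of 136 residues (Atp5g1), 146 residues (Atp5g2) and 141 residues (Atp5g3). The coding sequence for those residues, 234 bases that span 2 coding exons, is shown because it decides how well short reads can tell the genes apart. Capitals mark the 63 positions at which the 3 genes do not all have the same base, and all 3 genes lie on the minus strand of GRCm38. The stretch lies at chr11:96073107-96073644 in Atp5g1, at chr15:102663017-102665175 in Atp5g2 and at chr2:73908596-73909305 in Atp5g3, with an intron between the exons.
Atp5g1: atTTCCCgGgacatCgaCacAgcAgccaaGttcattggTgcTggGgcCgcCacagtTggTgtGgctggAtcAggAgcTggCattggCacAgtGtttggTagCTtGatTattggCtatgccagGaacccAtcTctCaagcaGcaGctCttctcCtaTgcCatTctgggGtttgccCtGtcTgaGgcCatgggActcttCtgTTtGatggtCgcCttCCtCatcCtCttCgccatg
Atp5g2: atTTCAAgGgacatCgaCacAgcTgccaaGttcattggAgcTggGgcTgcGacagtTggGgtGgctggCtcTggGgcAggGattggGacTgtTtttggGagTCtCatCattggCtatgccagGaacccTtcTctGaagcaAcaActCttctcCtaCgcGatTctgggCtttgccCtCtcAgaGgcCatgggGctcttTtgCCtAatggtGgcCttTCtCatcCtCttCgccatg
Atp5g3: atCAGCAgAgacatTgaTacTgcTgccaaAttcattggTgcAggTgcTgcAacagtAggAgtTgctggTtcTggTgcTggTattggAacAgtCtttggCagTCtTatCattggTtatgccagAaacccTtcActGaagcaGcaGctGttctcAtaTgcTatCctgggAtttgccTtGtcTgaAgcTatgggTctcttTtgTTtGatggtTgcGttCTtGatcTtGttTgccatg
Most capitals fall on the last base of a codon, where a change often leaves the amino acid as it is. Atp5g1 and Atp5g2 were identical at 198 of the 234 bases (84.6%), with a longest unbroken match of 20 bases. Atp5g3 matched Atp5g1 at 78.6% and Atp5g2 at 77.4% of the bases, with longest matches of 11 and 8 bases. The reads were 50 bases long, so no read from this stretch could match more than 1 of the 3 genes without mismatches.

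The genes differed far more in how many of their 50-base runs also occur elsewhere in the annotated transcripts. None of the 2224 runs of Atp5g3 (ENSMUSG00000018770.9, chr2:73908447-73911326) was found in another annotated gene. In Atp5g1 (ENSMUSG00000006057.15, chr11:96068852-96075670) 542 of 4881 runs, or 11.1%, were shared. In Atp5g2 (ENSMUSG00000062683.11, chr15:102662864-102672352) 622 of 1622 runs, or 38.3%, were shared. The median over 21601 protein-coding genes was 0.663%. Atp5g1 shared runs with 366 annotated genes, of which 8 were pseudogenes. The partner that shared most with Atp5g1 was Gm10039, a processed pseudogene on chromosome 11, with 335 runs. For Atp5g2 the partners were the pseudogenes Gm10175 on chromosome 7, with 596 runs, and Gm10231 on chromosome 17, with 392 runs, besides Mir688, a microRNA gene inside Atp5g2 on the same strand.

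Some other partners of Atp5g1 were well-counted coding genes, such as Wdr33, with 52 shared runs and 1329 to 1654 counts per library. The pseudogenes named above held few reads. Gm10039 had 3 to 17 counts per library, Gm10175 had 3 to 11 and Gm10231 had none. How the counting treated reads that match several places is not stated. The mitochondrial genes mt-Atp6 and mt-Atp8 were listed at 0 in all 12 libraries. For mt-Atp6, 99.5% of the runs occur in another annotated gene, while for mt-Atp8 none does, so these zeros do not show how such reads were counted. No genome sequence was used here, so copies outside annotated transcripts were not seen. The share of unique runs differed between the transcripts of a gene. In the 441-base transcript of Atp5g2, the one whose whole length is nearly all coding, no run was unique, in its 731-base transcript 12.6% were, and in the others, of 635 and 753 bases, 53.6% and 85.2% were. In the 596-base transcript of Atp5g1 34.0% were unique, against 88.4% in its 4715-base transcript. Levels of Atp5g2, and to a lesser extent Atp5g1, are therefore uncertain relative to Atp5g3. Whether T and N libraries held the same mix of these transcripts was not tested.

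**Figure D1:**
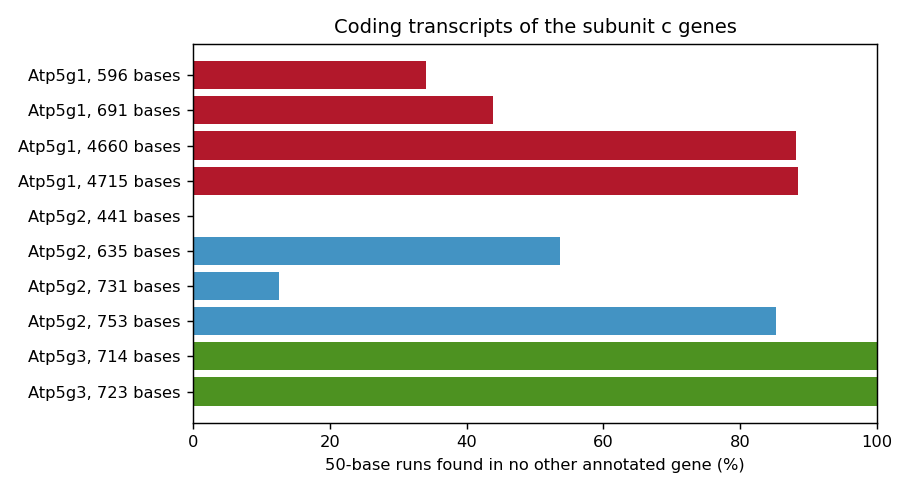
Share of the 50-base runs of each coding transcript that occur in no other annotated gene (bars, percent, from 0 to 100), for the subunit c genes named with transcript length. Both Atp5g3 transcripts stand at 100%, the transcripts of Atp5g1 lie between 34.0% and 88.4%, and the 441-base transcript of Atp5g2 has none.

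Atp5g3 supplied most of the subunit c reads in every library. It held 3905, 3521 and 4146 counts in F/M-N, 4282, 4219 and 4210 in F/M-T, 3780, 3833 and 4080 in Cb-N, and 4501, 4865 and 4506 in Cb-T. Atp5g1 held 395, 391 and 336 counts in F/M-N, 288, 300 and 274 in F/M-T, 536, 442 and 470 in Cb-N, and 408, 406 and 427 in Cb-T. Atp5g2 held 22, 17 and 19 counts in F/M-N, 17, 17 and 18 in F/M-T, 29, 19 and 27 in Cb-N, and 27, 27 and 28 in Cb-T. All 3 genes were above the limit of detection and passed the filter on low counts in both areas. Levels of different genes were compared per length, as CPM per 1000 bases of merged exons. On this scale Atp5g3 stood at 77.0 ± 3.95 in F/M-N, 82.9 ± 2.94 in F/M-T, 81.5 ± 5.0 in Cb-N and 87.5 ± 2.14 in Cb-T.

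Per 1000 bases, Atp5g1 stood at 3.32 ± 0.373 in F/M-N, 2.5 ± 0.0942 in F/M-T, 4.47 ± 0.359 in Cb-N and 3.48 ± 0.139 in Cb-T. Atp5g2 stood at 0.503 ± 0.0596 in F/M-N, 0.442 ± 0.0201 in F/M-T, 0.679 ± 0.138 in Cb-N and 0.674 ± 0.0224 in Cb-T. The order Atp5g3, Atp5g1, Atp5g2 held in each of the 12 libraries, without overlap. It held with 4 measures of length, but the distance did not. The level of Atp5g3 per length was 23.4 times that of Atp5g1 in F/M-N with merged exons of 2181 and 4912 bases. It was 8.69 times that of Atp5g1 with the shortest full coding transcripts of 714 and 596 bases, and 67.9 times with the longest coding transcripts. The files do not say which transcripts of Atp5g1 were present.

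Atp5g1 was lower in the Tpp1-/- brain in both areas. In Cb-N its level was 23.8, 20.3 and 21.8 CPM, and in Cb-T it was 17.2, 16.4 and 17.7 CPM. Each Cb-T library lay below each Cb-N library. It fell by 21.5%, a log2 fold change of -0.35 (SE 0.066, 95% interval -0.48 to -0.22, adjusted p = 1.9e-05 edgeR quasi-likelihood test, adjusted after Benjamini and Hochberg over 16382 genes). In F/M-N the level was 17.1, 17.6 and 14.2 CPM, and in F/M-T it was 12.6, 12.4 and 11.7 CPM. Again each mutant library lay below each control library, the nearest being the third F/M-N library. It fell by 23.1%, a log2 fold change of -0.38 (SE 0.081, 95% interval -0.55 to -0.21, adjusted p = 0.0022 by the same test over 16665 genes).

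Of all genes tested, 24.4% had a larger change than Atp5g1 in Cb and 10.5% in F/M, by absolute log2 fold change. The share of genes called lower at an adjusted p below 0.1 was 27.9% in Cb and 14.4% in F/M. A gene is called differentially expressed (DEG) here when its adjusted p by edgeR was below 0.1 and its change 1.5-fold or more, which 11.2% of genes met in Cb and 3.49% in F/M. The study used the same limits but also asked for agreement between methods, which was not required here. The decrease of Atp5g1 was smaller than 1.5-fold in both areas, and none of the subunit c genes was a DEG.

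Atp5g3 was slightly higher in the Tpp1-/- brain as counted, but this difference did not outlast a joint correction for transcript length and GC content. In Cb-N its level was 168, 176 and 189 CPM, and in Cb-T it was 190, 196 and 187 CPM. The groups overlapped, since the third Cb-N library lay above the third Cb-T library. The difference was 8.50%, a log2 fold change of 0.12 (SE 0.031, 95% interval 0.055 to 0.18, adjusted p = 0.0015 by edgeR), and a fit scaled on all 12 libraries gave 0.10 (adjusted p = 0.026). In F/M-N the level was 169, 159 and 176 CPM, and in F/M-T it was 188, 175 and 180 CPM, which also overlapped. The difference there was 10.2%, a log2 fold change of 0.14 (SE 0.039, 95% interval 0.059 to 0.22, adjusted p = 0.014 by edgeR), and a fit scaled on all 12 libraries gave 0.11 (adjusted p = 0.041). The share of genes called higher was 29.8% in Cb and 12.8% in F/M.

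Short transcripts as a class were higher in the mutant libraries. The median log2 fold change of genes whose longest transcript is under 1000 bases was 0.088 in Cb (903 genes) and 0.14 in F/M (882 genes). That of the longest class, of over 4000 bases, was -0.058 in Cb (5863 genes) and -0.048 in F/M (5946 genes). The longest annotated transcript of Atp5g3 has 862 bases, and the median of its length class was close to its own change. With the trend on length and GC content removed from each library, the log2 fold change of Atp5g3 was 0.036 in Cb (SE 0.026, adjusted p = 0.26 by edgeR) and 0.024 in F/M (SE 0.027, adjusted p = 0.60). With length alone corrected for, it stayed past the threshold in Cb (0.064, adjusted p = 0.044) but not in F/M (0.036). The change of Atp5g1 stayed past the threshold under the joint correction, at -0.31 in Cb (SE 0.065, adjusted p = 6.0e-05) and -0.34 in F/M (SE 0.076, adjusted p = 0.0010). Its longest transcript has 4715 bases. With the 596-base transcript of Atp5g1 in its place, the values were -0.38 in Cb and -0.46 in F/M. Under this correction 31.7% of genes were called higher and 24.1% lower in Cb, and 16.5% higher and 11% lower in F/M. The correction was added after the data were seen, and whether the length trend arose in the tissue or in the libraries was not tested.

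**Figure D2:**
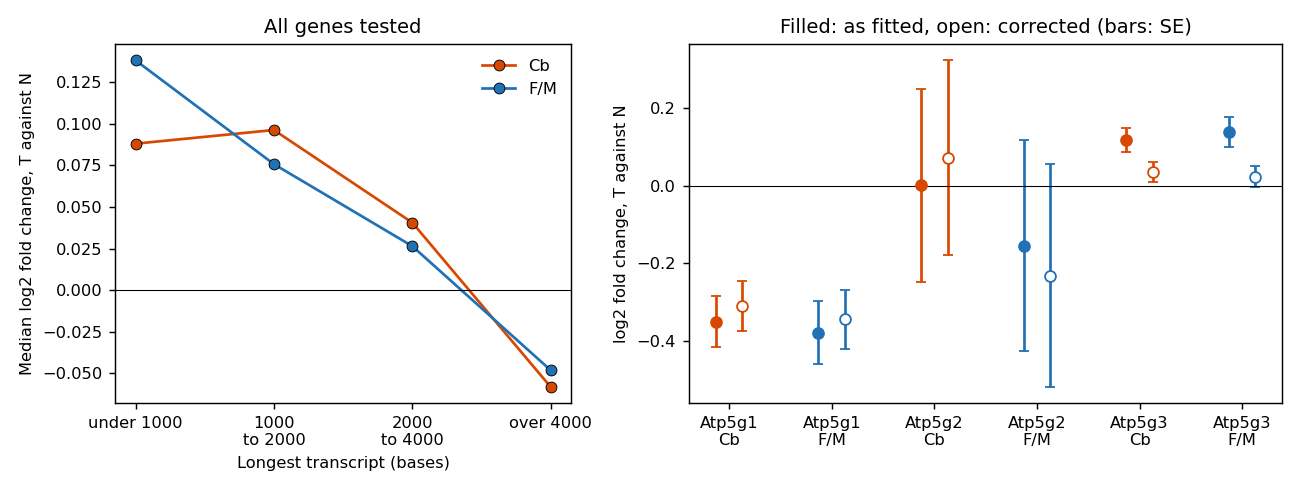
Left, median log2 fold change (T against N) of all genes tested, by length of the longest annotated transcript in bases, for Cb (orange) and F/M (blue). The medians run from 0.088 and 0.14 in the shortest class to -0.058 and -0.048 in the longest. Right, log2 fold change of the subunit c genes as fitted (filled) and with the trend on length and GC content removed (open), with SE bars. Atp5g3 moves to near 0 in both areas, while Atp5g1 stays at -0.31 in Cb and -0.34 in F/M.

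Atp5g2 was too sparse for a difference of moderate size to be seen. Its level was 1.29, 0.872 and 1.25 CPM in Cb-N and 1.14, 1.09 and 1.16 CPM in Cb-T. The Cb-T libraries lay within the range of the Cb-N libraries. The log2 fold change was 0.0013 (SE 0.25, 95% interval -0.50 to 0.50, adjusted p = 1.00 by edgeR). The level was 0.955, 0.766 and 0.805 CPM in F/M-N and 0.745, 0.704 and 0.771 CPM in F/M-T, which overlapped. The log2 fold change there was -0.15 (SE 0.27, 95% interval -0.72 to 0.41, adjusted p = 0.73). These intervals include changes as large as those of Atp5g1 and Atp5g3, so a difference was not detectable at this depth.

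**Figure D3:**
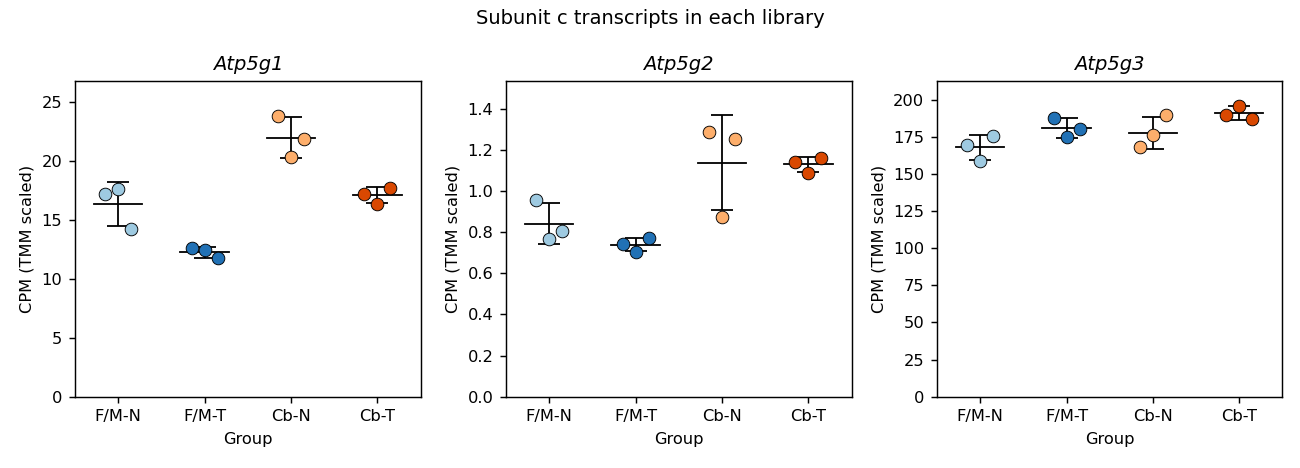
TMM-scaled CPM of Atp5g1, Atp5g2 and Atp5g3 in each library (points), with group mean (long bar) and SD (capped line), n = 3 per group, each panel on its own axis from 0. The T libraries of Atp5g1 lie below the N libraries of the same area, whereas the groups overlap for Atp5g2 and Atp5g3.

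The genotype effect was compared between the areas by the tissue-by-genotype term of a fit to all 12 libraries. For Atp5g1 the log2 fold change in Cb minus that in F/M was 0.048 (95% interval -0.17 to 0.27, adjusted p = 0.81 by edgeR). For Atp5g3 it was -0.0027 (95% interval -0.11 to 0.11, adjusted p = 0.98), and for Atp5g2 it was 0.17 (95% interval -0.55 to 0.90, adjusted p = 0.79). None of the 3 passed at an adjusted p below 0.1, which 27.5% of genes did. For Atp5g1 the interval includes differences of up to 0.27, so the areas were not shown to respond alike. The Cb and F/M libraries of a genotype came from the same 3 mice, which this fit and those between the areas treat as separate, and the libraries of the same number taken as pairs changed no call of the 3 genes.

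Between the areas, Atp5g1 was the gene that differed most clearly. It was higher in Cb than in F/M in both genotypes, with log2 fold changes of 0.43 in N (SE 0.073, adjusted p = 5.1e-06 by edgeR) and 0.48 in T (SE 0.079, adjusted p = 3.5e-06), and without overlap of the libraries. Levels of Atp5g1 ran in the order Cb-N (22.0 ± 1.76 CPM), Cb-T (17.1 ± 0.682), F/M-N (16.3 ± 1.83) and F/M-T (12.3 ± 0.463), of which the neighbours Cb-T and F/M-N overlapped. For Atp5g2 the difference was 0.43 in N (SE 0.25, adjusted p = 0.12, overlapping) and 0.61 in T (SE 0.25, adjusted p = 0.032, without overlap), the latter 1.52-fold and so within the DEG limits. The difference in T missed the threshold by DESeq2 (adjusted p = 0.12), and the difference in N passed it without the second Cb-N library (0.59, adjusted p = 0.047 by edgeR), without the first F/M-N library (adjusted p = 0.0997) or with the correction for length and GC content (0.56, adjusted p = 0.053). Its order was Cb-N (1.14 ± 0.231 CPM), Cb-T (1.13 ± 0.0376), F/M-N (0.842 ± 0.0998) and F/M-T (0.740 ± 0.0337). The Cb libraries overlapped with each other and the F/M libraries with each other, while each Cb-T library lay above each F/M-N library.

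For Atp5g3 the difference was 0.081 in N (SE 0.039, adjusted p = 0.061) and 0.078 in T (SE 0.038, adjusted p = 0.067), and the libraries overlapped in both. Neither held under the correction for length and GC content, with adjusted p = 0.82 in N and 0.27 in T, nor by DESeq2, with 0.14 and 0.40. Its order was Cb-T (191 ± 4.67 CPM), F/M-T (181 ± 6.42), Cb-N (178 ± 10.9) and F/M-N (168 ± 8.61), each overlapping with the next. Most genes differed between these areas. At the same adjusted p, 79.6% of genes passed between Cb-N and F/M-N and 76.3% between Cb-T and F/M-T.

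The mature protein is the same whichever gene it comes from, so the summed level was also measured. It was 193, 197 and 212 CPM in Cb-N and 208, 213 and 206 CPM in Cb-T, and the groups overlapped. It was 188, 177 and 191 CPM in F/M-N and 201, 188 and 193 CPM in F/M-T, which overlapped too. The difference of the mean log2 sums, T minus N, was 0.060 in Cb (SE 0.045) and 0.067 in F/M (SE 0.043). With the correction for length and GC content it was -0.0011 in Cb (SE 0.041) and -0.025 in F/M (SE 0.037). No test was applied to this sum. With other scalings it was 0.035 in Cb (RLE size factors) and 0.12 in both areas (total count). Its difference rested on single libraries, being 0.032 without the first and 0.10 (SE 0.022) without the third Cb-N library, and 0.035 without the second F/M-N and 0.041 without the first F/M-T library. The sum followed Atp5g3, which made up 88.5% of it in Cb-N, 91.3% in Cb-T, 90.7% in F/M-N and 93.3% in F/M-T, by CPM.

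What shifted in the mutant was the proportion between the genes. Atp5g1 contributed 11 ± 1.19% of the summed CPM in Cb-N and 8.18 ± 0.478% in Cb-T, and 8.85 ± 1.27% in F/M-N and 6.33 ± 0.267% in F/M-T. The ratio of raw Atp5g3 counts to raw Atp5g1 counts in the same library, which needs no scaling, was 7.05, 8.67 and 8.68 in Cb-N and 11, 12 and 10.6 in Cb-T. It was 9.89, 9.01 and 12.3 in F/M-N and 14.9, 14.1 and 15.4 in F/M-T. In both areas each T library lay above each N library. On the log2 scale the ratio differed by 0.46 in Cb (SE 0.11) and 0.52 in F/M (SE 0.14), and by 0.34 (SE 0.11) and 0.37 (SE 0.11) with the correction. The ratio restates the changes of both genes and received no test of its own.

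**Figure D4:**
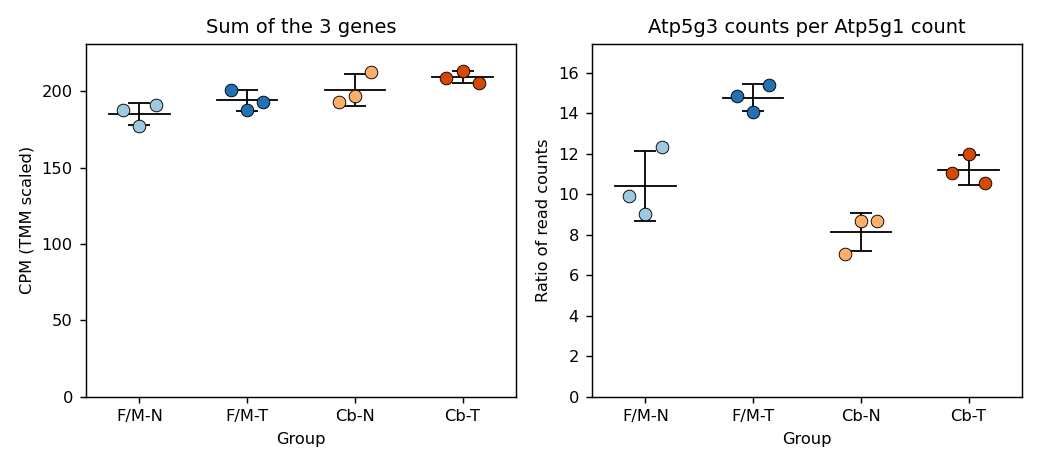
Left, summed TMM-scaled CPM of the subunit c genes in each library. Right, raw Atp5g3 counts per raw Atp5g1 count. Points are libraries, long bars group means and capped lines SD, n = 3 per group, axes from 0. The sums overlap between genotypes, while the ratios lie between 10.6 and 12 in Cb-T against 7.05 to 8.68 in Cb-N.

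The rest of the enzyme was examined with 22 other genes for its subunits and assembly, of which 20 had enough reads to be tested. In Cb 12 of them were higher in T, 1 was lower and 7 were not called, against 29.8% of all genes higher and 27.9% lower there, with a median log2 fold change of 0.11 against 0.012 over all genes. In F/M 6 were higher, none was lower at an unadjusted p below 0.05 or after adjustment, and 14 were not called, against 12.8% of all genes higher and 14.4% lower, with a median of 0.076 against 0.0078. None was a DEG in either area. The count in F/M rested on few libraries, and without the third F/M-N library 10 were higher. With the correction for length and GC content, of 19 genes 9 were higher and 3 lower in Cb, beside 31.7% and 24.1% of all genes, and 1 was higher and none lower in F/M, beside 16.5% and 11%.

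In the F1 head, where ATP is made, 4 of 5 genes were higher in Cb, where 29.8% of all genes were. They were Atp5a1 (alpha subunit, 0.11), Atp5b (the catalytic beta subunit, 0.047), Atp5c1 (the gamma subunit of the central shaft, 0.16) and Atp5e (epsilon, 0.22), all as log2 fold changes. Atp5d, the delta subunit, was at 0.052 (adjusted p = 0.22 by edgeR). In F/M only Atp5c1 passed, at 0.14 (adjusted p = 0.0032), and it was the gene that stayed higher in F/M with the correction (0.073, adjusted p = 0.039). Under the correction Atp5b turned to -0.039 in Cb (adjusted p = 0.035).

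In the peripheral stalk, which holds the head still against the turning ring, 3 of 4 genes were higher in Cb, beside the same 29.8% of all genes. These were Atp5f1 (subunit b, 0.13), Atp5j (coupling factor F6, 0.084) and Atp5o (the subunit that confers oligomycin sensitivity, 0.19). Atp5h, subunit d, was at 0.061 (adjusted p = 0.24). In F/M only Atp5j passed, at 0.11 (adjusted p = 0.090). With the correction Atp5j lost its call in both areas (adjusted p = 0.88 in Cb and 0.93 in F/M), which left 2 of the 4 higher in Cb and none in F/M. The annotation holds Atp5o under 2 gene entries. For the entry used, 89.8% of the 50-base runs occur in another annotated entry, which may be the other Atp5o. Which entry shares them was not looked up, so how certain its level is was not settled.

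In the membrane part around the c-ring, 3 of 5 genes tested were higher in Cb and 1 was lower, against 29.8% and 27.9% of all genes. Those higher were Atp5j2 (subunit f, 0.22), Atp5k (subunit e, 0.20) and 2010107E04Rik (a small proteolipid of the complex, 0.23). Atp5l, which encodes subunit g at the dimer interface, was the only one besides Atp5g1 to be lower. Its level was 11.8, 13.5 and 12.6 CPM in Cb-N and 10.5, 9.83 and 8.25 CPM in Cb-T, without overlap. The log2 fold change was -0.40 (SE 0.088, adjusted p = 2.1e-04 by edgeR) and -0.26 with the correction (adjusted p = 0.0092). In F/M it was 0.068 (SE 0.12, adjusted p = 0.74), with 6.38, 4.82 and 5.59 CPM in F/M-N and 5.34, 6.38 and 5.48 in F/M-T. Usmg5, which also supports dimers, was at 0.011 in Cb (SE 0.20) and -0.13 in F/M (SE 0.21). In F/M Atp5k (0.15) and 2010107E04Rik (0.25) were higher, 2 of 5 beside 12.8% of all genes. With the correction Atp5k was not called in F/M (0.063, adjusted p = 0.27 by edgeR), and 2010107E04Rik was not among the genes the correction covered.

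Among 6 genes for assembly and regulation, Atpif1, the inhibitor that blocks ATP hydrolysis by the enzyme, and Tmem242, which assists formation of the c-ring, were higher in both areas, 2 of 6 against 29.8% of all genes in Cb and 12.8% in F/M. By edgeR, Atpif1 stood at 0.26 in Cb, with an adjusted p of 3.4e-07, and at 0.15 in F/M, with an adjusted p of 0.0083. Tmem242 stood at 0.24 in Cb, with an adjusted p of 1.4e-04, and at 0.17 in F/M, with an adjusted p of 0.024. With the correction both remained past the threshold in Cb (0.17 and 0.14) but not in F/M (adjusted p = 0.12 and 0.40). Tmem70, which also serves c-ring assembly, was at -0.056 in Cb and -0.023 in F/M and was not called in either, though it was lower in Cb with the correction (-0.12, adjusted p = 0.025). Atpaf1, Atpaf2 and Fmc1, which assist assembly of the head, were not called.

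**Figure D5:**
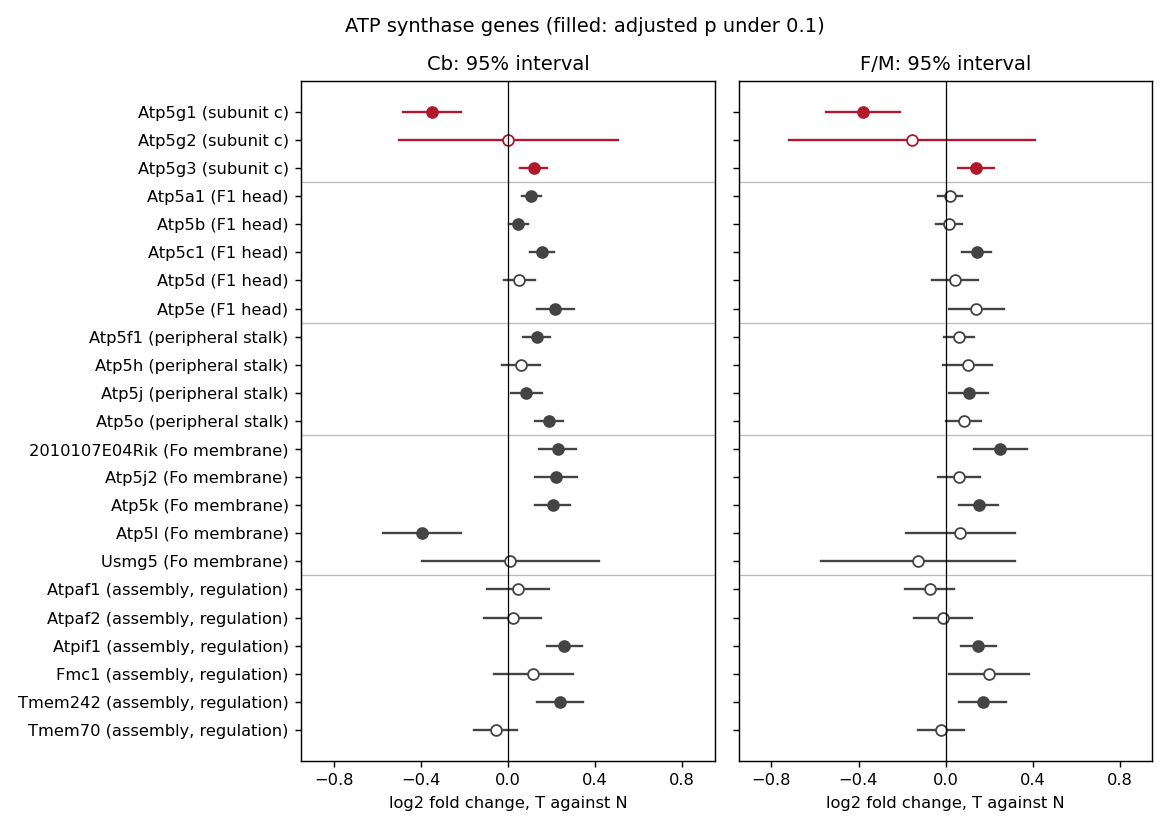
Log2 fold change (T against N) of the subunit c genes (red) and of the other ATP synthase genes tested (grey) in Cb and F/M, with 95% intervals, as fitted without a correction for length. Filled points have an adjusted p below 0.1. Atp5g1 is lower in both areas and Atp5l in Cb, while the other filled points lie between 0.047 and 0.26.

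Subunit c precursors reach the inner membrane through the general import pathway. Of 12 genes for import and maturation, 5 were higher and none lower in Cb, and 4 were higher and none lower in F/M, none being lower at an unadjusted p below 0.05 either. Over all genes, 29.8% were higher in Cb and 12.8% in F/M, so the share in Cb was not far from that of all genes. Among the genes that passed, the largest increases in Cb were those of Tomm20, a receptor of the outer membrane (0.21, adjusted p = 9.6e-09 by edgeR), and Hspd1, the matrix chaperonin (0.19, adjusted p = 7.2e-05). In F/M they were those of Hspd1 (0.21, adjusted p = 5.9e-04) and Timm50, part of the inner membrane translocase (0.17, adjusted p = 0.063). Of 8 regulators of nuclear genes for mitochondria, 1 was higher and 5 lower in Cb, and 1 was higher and 3 lower in F/M, beside 27.9% of all genes lower in Cb and 14.4% lower in F/M. Over both lists, the genes lower numbered 3 in Cb without the third Cb-T library and 1 in F/M without the third F/M-T library. Of the genes that passed, those with the strongest decreases in Cb were the coactivator Ppargc1b (-0.53, adjusted p = 1.7e-10) and the transcription factor Nrf1 (-0.25, adjusted p = 1.9e-04). In F/M they were Yy1 (-0.15, adjusted p = 0.0074) and Esrra (-0.14, adjusted p = 0.066), both transcription factors. Ppargc1b was at -0.19 there and did not pass (adjusted p = 0.16). No gene of either list was a DEG, and with the correction for length and GC content the counts shifted. Of the import genes 7 were then higher and 2 lower in Cb, and 8 higher and 1 lower in F/M. Of the regulators 3 were higher and 4 lower in Cb, and 2 higher and 2 lower in F/M, beside 31.7% of all genes higher and 24.1% lower in Cb and 16.5% and 11% in F/M.

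The cell type markers moved between the genotypes too. In Cb, the summed level of 6 granule cell markers was 4545 to 4623 CPM in T, below all N libraries, with 5 of the 6 lower, and that of 6 Purkinje cell markers was 7670 to 7903 in N and 6412 to 6476 in T, with all 6 lower, against 27.9% of all genes lower in Cb. The summed level of 8 astrocyte markers went from 6239 to 6271 CPM over the Cb-N libraries and from 8066 to 8098 over the Cb-T libraries, and that of 10 microglia markers from 111 to 120 and from 390 to 410. Of the astrocyte markers 7 were higher and 1, Slc1a3, was lower (-0.083), and all 10 microglia markers were higher, against 29.8% of all genes. Of 8 oligodendrocyte markers all were higher in Cb-T, with sums of 4618 to 4730 and 6071 to 6130 CPM. In F/M the sums of these 8 overlapped, at 5944 to 6117 CPM in N and 5920 to 6088 in T. There 1 was higher and 7 were not called, against 12.8% of all genes higher. In F/M, 8 neuronal markers summed to 9409 to 9454 CPM in N and 8804 to 8873 in T, 8 astrocyte markers to 5442 to 5739 and 6312 to 6689, and 10 microglia markers to 342 to 349 and 503 to 511. There 4 of the 8 neuronal markers were lower, all 8 astrocyte and 8 of the 10 microglia markers were higher, and the others were not called, against 12.8% of all genes higher and 14.4% lower in F/M. The neuronal markers summed to 6409 to 6530 CPM in Cb-T, below the 7072 to 7125 CPM of Cb-N, with 1 higher and 4 lower. Of 8 endothelial markers 6 were higher in Cb and 1 in F/M. These levels, other than those of the oligodendrocyte markers in F/M, moved alongside the decrease of Atp5g1, and their part in it was not tested. In such bulk samples, fewer cells of a type and less RNA per cell cannot be told apart.

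Across the 12 libraries Atp5g3 did not follow Atp5g1 or Atp5g2 closely, while Atp5g1 and Atp5g2 ran more alike. The Pearson correlation of log2 CPM was 0.78 between Atp5g1 and Atp5g2, -0.15 between Atp5g1 and Atp5g3, and 0.35 between Atp5g2 and Atp5g3. These values describe 12 libraries that share area and genotype, and the counting error of Atp5g2 weakens any that involve it. Of 17482 genes, those whose levels ran most like Atp5g1 were Smad1 (r = 0.98), a mediator of bone morphogenetic protein signalling, Krit1 (0.98), a regulator of endothelial junctions, and Hif1an (0.96), an inhibitor of hypoxia-inducible factor. For Atp5g2 they were Polh (0.96), Nup50 (0.96) and Baiap2l1 (0.95), and for Atp5g3 they were Pafah1b3 (0.96), BC004004 (0.93) and Grrp1 (0.93). For the sum they were Rbm8a (0.94), of the exon junction complex, Tmem69 (0.93) and Coa4 (0.93), an assembly factor of cytochrome c oxidase. Smad1, the closest to Atp5g1, had means of 29.3 CPM in F/M-N, 24.5 in F/M-T, 36.4 in Cb-N and 30.7 in Cb-T.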

How the data were processed

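Total RNA from Cb and F/M was made into stranded poly(A) libraries and sequenced as 50-base single reads. The authors aligned the reads to the mouse genome (mm10/GRCm38) with STAR and deposited raw read counts per gene made with featureCounts 1.26.1, and the settings for strand and for multiply mapped reads are not given in the sources used here. The counts were fitted with edgeR 4.0.16 in R 4.3.3 (TMM scaling, filterByExpr, quasi-likelihood test, Benjamini-Hochberg adjustment over all genes tested). T and N were compared within each area on 6 libraries, and the tissue-by-genotype term and the Cb against F/M contrasts used all 12. Library totals were 21428379 to 24458189 counts, and replicate libraries differed by more than counting error (chi-square per degree of freedom 1.27 to 3.37 over 12 pairs). The T against N fits, the tissue-by-genotype fit and the correction for GC content and length (in Cb) were run on simulated counts, with outcomes not given here. Annotation and transcript sequences were GENCODE M21 (GRCm38).

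The members and the gene lists were chosen with earlier results of these data known. The text names the subunit c genes, Tpp1, the genes of the ATP synthase lists, the 2 import or regulator genes that rose most and the 2 that fell most at an adjusted p below 0.1 in each area, the 3 genes most correlated with each member, and genes that share 50-base runs. Alternatives were DESeq2 1.42.0, limma-voom (limma 3.58.1), other scalings and filters, a replicate block and leaving out each library. The correction for GC content and length, a robust spline fit of log2 CPM in each library used as an offset and centred on the median, covered 16001 of 16382 genes tested in Cb and 16276 of 16665 in F/M. Cb and F/M libraries of a genotype came from the same 3 mice by the methods of the study, and the labels do not state which libraries share a mouse.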

Additional observations from a re-analysis of the deposited data

Results flagged for a closer look

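The change between T and N differed between Cb and F/M, by the tissue-by-genotype term of the edgeR fit at an adjusted p below 0.1, for none of the subunit c genes and 5 of the 20 other ATP synthase genes tested, against 27.5% of all genes. It also differed for 3 of the named import and regulator genes, which were named for large changes within an area, so that their number cannot be read against that share. The log2 fold change in Cb minus that in F/M was -0.44 for Atp5l (adjusted p = 0.037), 0.11 for Atp5a1 (adjusted p = 0.016), 0.13 for Atp5o (adjusted p = 0.073), 0.18 for Atp5j2 (adjusted p = 0.092) and 0.13 for Atpif1 (adjusted p = 0.090). It was 0.20 for Tomm20 (adjusted p = 1.8e-04), -0.33 for Ppargc1b (adjusted p = 0.032) and -0.26 for Nrf1 (adjusted p = 0.034). With the correction for GC content and length all 8 remained past the threshold, with -0.36 for Atp5l and 0.062 for Atp5a1. Under the same correction Atp5f1 (0.16, adjusted p = 0.0031) and Timm50 (-0.20, adjusted p = 0.059) also passed.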

How the results depend on the processing

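Of the alternatives to the tested results, counts and sums, 398 left direction and call in place, 16 lost the call, 3 gained it, 17 changed sign and 22 moved a count or value past the stated margin. Atp5g1 kept its decrease and its call in both areas under every alternative run, from -0.41 to -0.29 in Cb and from -0.47 to -0.32 in F/M without any 1 library. Atp5g3 ranged from 0.072 to 0.16 in Cb and from 0.099 to 0.17 in F/M in the same way, and lost its call with the correction for GC content and length (0.036 in Cb, 0.024 in F/M) and, in F/M, for length alone (0.036). That correction left 0 subunit c genes higher in either area, and gave 3 ATP synthase genes lower in Cb, 1 higher in F/M, 10 import and regulator genes higher in each area, and sums of -0.0011 in Cb and -0.025 in F/M. Under it, 31.7% of all genes were higher and 24.1% lower in Cb, and 16.5% were higher in F/M. The correction also gave -0.31 for Atp5g1 in Cb. It moved the tissue-by-genotype term of Atp5g3 to 0.028, the difference between Cb-N and F/M-N to 0.56 for Atp5g2 and 0.0081 for Atp5g3, and that between Cb-T and F/M-T to 0.036 for Atp5g3. The cause was not tested.

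The change of Atp5g2 in Cb, close to 0, was -0.0065 by DESeq2, -0.0074 with RLE scaling, -0.012 in the fit of all 12 libraries and -0.043 with the correction for length alone, and ranged from -0.16 to 0.096 without 1 library. In F/M the change of Atp5g2 ranged from -0.22 to -0.054 without 1 library. DESeq2 gave 0.57 (adjusted p = 0.12) for Atp5g2 between Cb-T and F/M-T, and 0.070 (adjusted p = 0.14) and 0.042 (adjusted p = 0.40) for Atp5g3 in N and T. RLE scaling gave 0.042 for Atp5g3 in T (adjusted p = 0.32). DESeq2 called 3 import and regulator genes higher in F/M. With no limit on the fold change, 2 subunit c genes were called in each area, 13 ATP synthase genes in Cb and 6 in F/M, and 11 import and regulator genes in Cb and 8 in F/M. Without that limit, 29.8% of all genes were higher and 27.9% lower in Cb, and 12.8% and 14.4% in F/M. Scaled by the total count alone, the sum differed by 0.12 in Cb and 0.12 in F/M. Without 1 library, ATP synthase genes higher in F/M numbered 4 to 10, import and regulator genes higher in F/M 3 to 6 (3 without the first or the third F/M-T library), those lower in F/M 1 to 3 (1 without the third F/M-T library), those lower in Cb 3 to 6 (3 without the third Cb-T library) and DEGs among them in Cb 0 to 1 (1 without the third Cb-N library). With all libraries, 12.8% of all genes were higher and 14.4% lower in F/M, while 27.9% were lower and 11.2% were DEGs in Cb. Without 1 library, the tissue-by-genotype term ranged from -0.029 to 0.14 for Atp5g1, from 0.014 to 0.28 for Atp5g2 and from -0.050 to 0.047 for Atp5g3. Between Cb-N and F/M-N, Atp5g2 ranged from 0.33 to 0.59 and Atp5g3 from 0.033 to 0.12, its call ending without the second F/M-N or the third Cb-N library. Between Cb-T and F/M-T, Atp5g3 ranged from 0.053 to 0.10 and kept its call in 1 of 6 such fits. A minimum mean count of 50 left Atp5g2 out.

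Libraries of the same number did not deviate together (correlations from -0.016 to 0.062), and the main fits did not take the numbers as pairs. These correlations do not show which libraries share a mouse, nor that libraries of shared mice are independent. With the replicate number as a block, Atp5g1 was at -0.35 in Cb and -0.38 in F/M and Atp5g3 at 0.12 and 0.14, and 10 ATP synthase genes were higher in F/M.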
